A study of Homo sapiens with 4 samples.

Results

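The interleukin-6 (IL6) family and its shared receptor chain gp130 were examined in Hs746T, an established line of gastric carcinoma cells in which MET is amplified and also lacks exon 14 through a splicing mutation. The set comprised 10 of the 19740 genes named on the array, taken as every non-control probe whose RefSeq accession belonged to IL6, IL11, LIF, CLCF1, IL6R, IL6ST, LIFR, OSMR, STAT3 or SOCS3, and these genes were covered by 18 probes. The rule used names only and no measured value, but the members were chosen with earlier results of these data known. Counts over them are therefore descriptive. Total RNA was hybridised to 4 one-colour Agilent human arrays, with 1 array for each of 4 conditions. These were cells given DMSO, the vehicle; PHA665752, a MET kinase inhibitor; sc siRNA, the control siRNA; and MET siRNA, directed against the MET transcript. Harvest of the siRNA cultures took place 48 h after lipid transfection. The line was maintained in serum-containing medium, but the siRNA cultures were transfected in Opti-MEM medium and then moved to complete medium. The dose and duration of PHA665752 for the array were not given in the sources used here. The single line and the single array per condition left no replicate, so no test could be run and precision is limited by how few arrays there are.

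Cytokines of the IL6 family signal through gp130, the product of IL6ST, which pairs with a ligand-specific receptor chain. IL6 and IL11 first bind their own alpha receptors, whereas LIF signals through gp130 paired with the LIF receptor. CLCF1 uses that pair as well, within the ciliary neurotrophic factor receptor complex. The receptor complexes activate JAK kinases, which phosphorylate STAT3, and STAT3 induces SOCS3, an inhibitor that binds gp130 and limits further signalling. In carcinomas these cytokines come both from tumour cells and from stroma, and IL6 transcription is commonly driven by inflammatory inputs such as NF-kB.

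The inhibitor was set against its vehicle and the knockdown against its control siRNA, without an array in common. A further ratio, sc siRNA over DMSO, served as a yardstick for differences between the control cultures. These differed in lipid transfection, control siRNA, transfection medium and vehicle, and possibly in time to harvest, which cannot be told apart. This ratio shares the DMSO array with the inhibitor comparison and the sc siRNA array with the knockdown comparison. It is therefore not independent of either. Signals are the background-subtracted, detrended spot intensities of the Feature Extraction software, and a log2 ratio is the difference of log2 signals after the 75th percentile of each array was subtracted. The ± value is the measurement error that the software modelled for the spots, carried over to the log2 ratio; it covers the array measurement and not differences between cultures. "Past 2-fold" describes the size of a ratio and is not a test.

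The arrays resembled each other except for MET siRNA, where 61.1% of probes were well above background and 5.58% of spots carried outlier marks, against 67.4% to 68.2% and 1.69% to 2.21% on the other arrays. MET itself, the targeted gene, had signals of 221451 under DMSO, 100492 under PHA665752, 190010 under sc siRNA and 77853 under MET siRNA. Its log2 ratio was -0.93 with the inhibitor, -1.33 under MET siRNA and 0.03 between the control arrays, so the MET siRNA label matched a lower MET transcript. Of the gastric epithelial markers, 8 of 9 measured genes were well above background on the DMSO, PHA665752 and sc siRNA arrays and 7 on the MET siRNA array, with GKN1 not well above background on any. Of 5 measured mesenchymal markers, 5 were well above background on each array. Of 7 measured leukocyte markers, 4 were well above background on each array, and CD3E, MS4A1 and NCAM1 were on none.

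Sequence upstream of IL6 and IL11 is shown because these ligands gave the largest ratios among the cytokines and differed from the DMSO array in opposite directions. Each line holds the 250 bases before the annotated start, from RefSeq on GRCh38.p14, in the direction of transcription and with the matched motif in capitals. The IL6 window lies at chr7:22726950-22727199 on the plus strand and the IL11 window at chr19:55370464-55370713 on the minus strand.
IL6: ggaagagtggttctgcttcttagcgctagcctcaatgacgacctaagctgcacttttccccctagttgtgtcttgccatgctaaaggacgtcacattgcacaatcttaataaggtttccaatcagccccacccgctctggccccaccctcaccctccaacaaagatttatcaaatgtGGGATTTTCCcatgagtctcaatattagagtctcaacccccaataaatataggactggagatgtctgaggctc
IL11: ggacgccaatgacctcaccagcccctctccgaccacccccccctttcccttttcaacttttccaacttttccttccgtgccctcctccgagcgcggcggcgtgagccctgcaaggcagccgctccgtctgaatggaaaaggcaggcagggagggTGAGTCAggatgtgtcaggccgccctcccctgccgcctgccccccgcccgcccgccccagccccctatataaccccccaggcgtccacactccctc
The capitals in IL6 mark a match to the NF-kB consensus, GGGATTTTCC, whose first base lies at -73 from the start. The capitals in IL11 mark TGAGTCA, a match to the AP-1 motif TGANTCA, at -96. The search covered both strands and also included the STAT motif TTCNNNGAA and the cAMP response element TGACGTCA. Among all 35116 windows of this length, 5.21% held the NF-kB consensus, 6.57% the AP-1 motif, 6.57% the STAT motif and 1.65% the cAMP response element. Windows were found for 8 of the 10 genes (11 windows, with LIF and CLCF1 not in the table). Apart from IL6 and IL11, only LIFR held a match, to the STAT motif, as TTCCTTGAA at -165 in 1 of its 3 windows and TTCATCGAA at -182 in another. These matches describe letters only, since no binding was measured.

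PHA665752 gave higher IL6 and SOCS3 and lower IL11, each past 2-fold. With MET siRNA, higher IL6 was the only member ratio past 2-fold. SOCS3 had no ratio there because of an outlier mark, and was at 0.73 with the mark ignored. In both treatments IL6 fell short of 2-fold under a different background correction. The genes with a ratio also differed, as CLCF1 had none with PHA665752 and SOCS3 none in the pairs that used sc siRNA. Of the 9 member genes with a ratio for PHA665752, 3 were past 2-fold (2 higher and 1 lower), where 21.1% of all 14322 genes with a ratio were past it (13.1% higher and 8.04% lower). For MET siRNA this was 1 of 9, higher, against a background of 2.73% of 13647 genes (2.04% higher and 0.696% lower). Between the control arrays it was 2 of 9, with IL6 higher and IL11 lower, against 4.05% of 14274 genes (2.89% higher and 1.16% lower). The median log2 ratio of the member genes was -0.25 under PHA665752, -0.16 under MET siRNA and 0.32 between controls, where the medians of all genes were 0.07, -0.02 and -0.01. In RNA from whole cultures, fewer cells expressing a gene and less RNA per cell cannot be told apart.

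**Figure D1:**
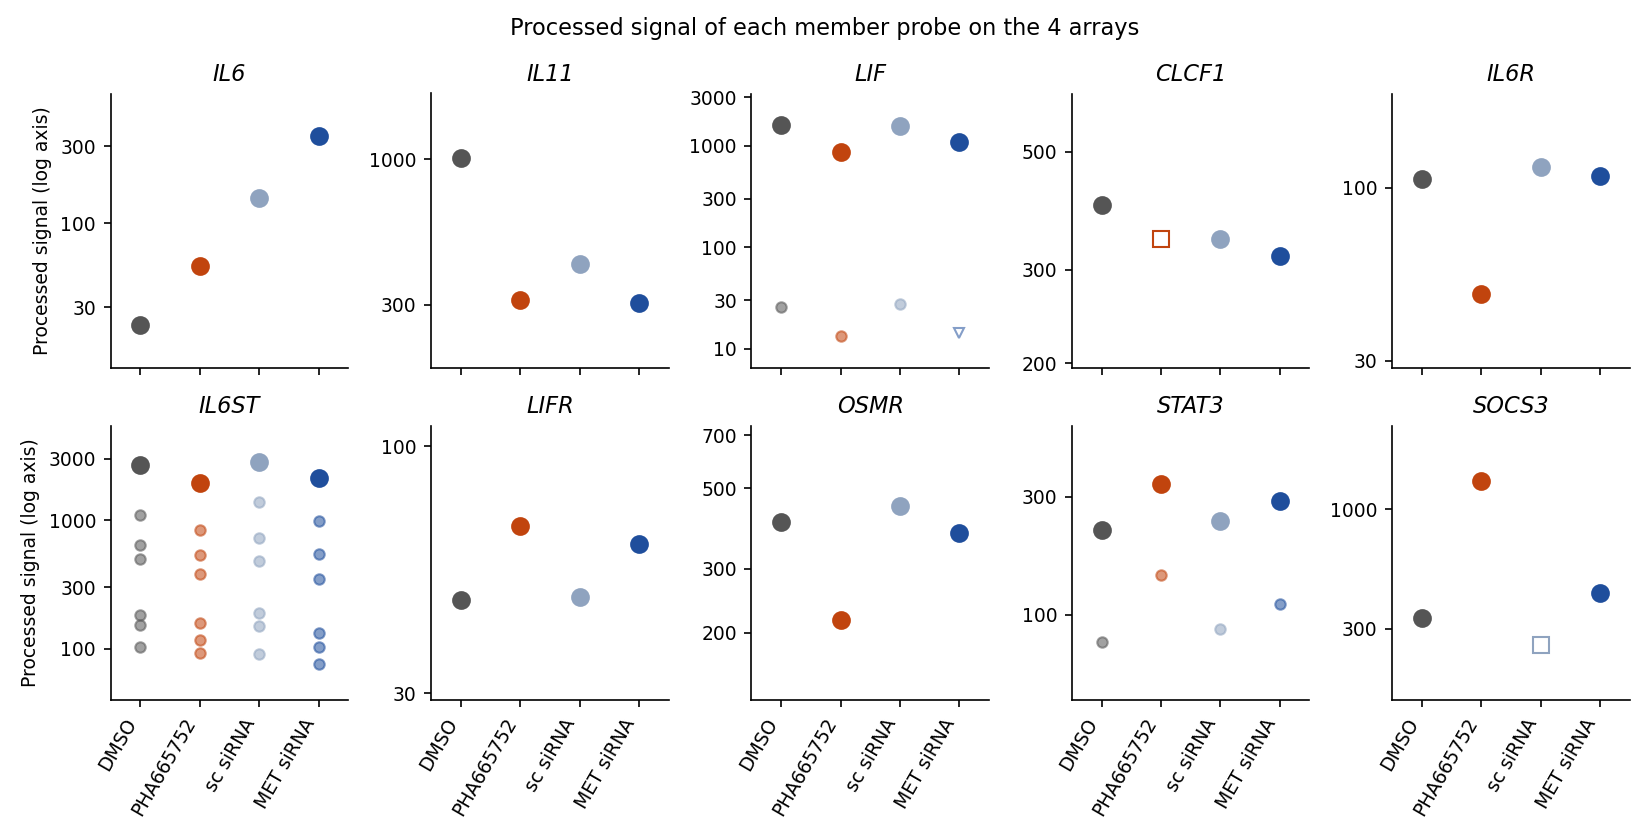
Processed signal (log axis, scaled separately in each panel) of all 18 probes of the 10 genes on the DMSO, PHA665752, sc siRNA and MET siRNA arrays. Large points are the probe that stands for the gene and small points its other probes; an open triangle was not well above background and an open square carried a background outlier mark. IL6 ran from 23.2 under DMSO to 346.9 under MET siRNA, and IL11 was highest with DMSO at 1011.

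IL6, the founding cytokine of the family, had signals of 23.2 under DMSO, 54.2 under PHA665752, 143.7 under sc siRNA and 346.9 under MET siRNA. Signal was thus lowest with the vehicle and highest with MET siRNA, and both siRNA arrays lay above both arrays of the inhibitor comparison. The probe, A_23_P71037, was spotted 10 times on each array, with 10, 10, 9 and 8 usable spots in the same order. Single spots ranged from 19.9 to 28.9, from 49.1 to 58.9, from 137 to 153 and from 342 to 361, so the spots of different arrays did not overlap. The SD between spots on the log2 scale was 0.14 under DMSO and 0.02 under MET siRNA, the dimmest array being the noisiest. As a share of the 75th percentile of its array, the brightest IL6 spot reached 2.92%, 6.90%, 18.4% and 42.0%.

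The IL6 log2 ratio was 1.44 ± 0.26 under PHA665752, a 2.71-fold higher level, and 1.22 ± 0.21 under MET siRNA, a 2.34-fold higher level. The ratio between the controls was larger than either, at 2.89 ± 0.25 or 7.39-fold. Counted from the highest ratio down, IL6 was number 1486 of 23471 probes with PHA665752, number 325 of 21454 under MET siRNA and number 81 of 23629 between controls. The MET siRNA ratio was therefore measured on top of a sc siRNA level that already stood above DMSO. With normexp, a background correction that draws dim signals together, the ratios were 0.62, 0.97 and 1.51, and the first 2 were then not past 2-fold. With arrays scaled by the median of their probes well above background, the MET siRNA ratio was 0.92.

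**Figure D2:**
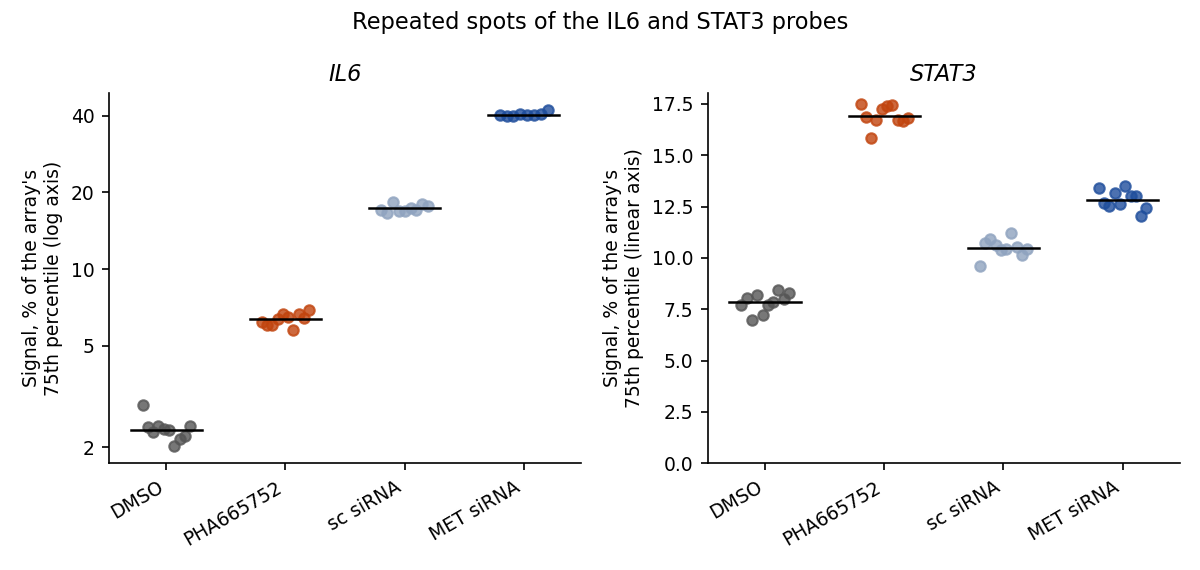
Single usable spots of the IL6 probe (log axis) and of the STAT3 probe A_23_P100795 (linear axis from 0), each as a percentage of the 75th percentile of its array; lines are the mean on the log2 scale. Spots of 1 array share a culture and a hybridisation and are not replicates of a condition. The brightest IL6 spot was 2.92% with DMSO and 42.0% with MET siRNA, and on this scale the arrays do not overlap for either probe.

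IL11, a gp130 ligand known from fibrosis and gastric epithelial growth, had signals of 1011 under DMSO, 311.4 under PHA665752, 419.3 under sc siRNA and 303.5 under MET siRNA. The vehicle array was thus the highest, where for IL6 it was the lowest. The log2 ratio was -1.48 ± 0.20 under PHA665752, 2.80-fold lower. With MET siRNA it was -0.51 ± 0.20, 1.43-fold lower and not past 2-fold. Between controls it was -1.02 ± 0.20, 2.02-fold lower, so the sc siRNA array also lay below DMSO. Across the alternative ways of processing the inhibitor ratio stayed between -1.73 and -1.44 and the MET siRNA ratio between -0.81 and -0.39.

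LIF, named for its action on leukaemia cells and the ligand of LIFR, had signals of 1603 under DMSO, 867.9 under PHA665752, 1548 under sc siRNA and 1076 under MET siRNA on its brighter probe. Both treated arrays lay below both controls. The log2 ratios were -0.67 ± 0.20 (1.59-fold lower) and -0.57 ± 0.20 (1.49-fold lower), with 0.20 ± 0.20 between controls, and none was past 2-fold. The second LIF probe, A_24_P233488, was dim, at 25.5, 13.2, 27.9 and 14.3, the last of these not well above background. Its ratio was -0.73 ± 0.37 under PHA665752, and with MET siRNA its level was at least 1.65-fold lower. With normexp the inhibitor ratio of this dim probe was -0.04 and its MET siRNA bound was -0.31 on the log2 scale.

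CLCF1, a ligand of the ciliary neurotrophic factor receptor complex, had signals of 397.6 under DMSO, 343.4 under sc siRNA and 317.7 under MET siRNA. Its spot on the PHA665752 array carried a background outlier mark, and with the mark ignored the signal there was 343.0. The log2 ratio was -0.16 ± 0.20 under MET siRNA and 0.04 ± 0.20 between controls, both within the software error, and -0.01 under PHA665752 when the mark was ignored. The sign of the control ratio changed with the scaling (-0.06 at the 50th percentile).

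Among the receptors, none was past 2-fold in any comparison. IL6R, the alpha receptor that binds IL6, had signals of 106.3 under DMSO, 47.9 under PHA665752, 115.4 under sc siRNA and 108.7 under MET siRNA. The PHA665752 array stood below the other 3, which were close together. Its log2 ratio was -0.94 ± 0.22 under PHA665752 (1.92-fold lower) and -0.13 ± 0.21 under MET siRNA, with 0.37 ± 0.21 between controls. The inhibitor ratio lay near the 2-fold line and passed it under quantile normalization (-1.20) and at the 50th percentile (-1.18), whereas normexp gave -0.48.

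IL6ST, the gp130 chain shared by the whole family, was covered by 7 probes, 4 assigned to one RefSeq transcript and 3 to another. On the probe that stands for the gene the signals were 2686 under DMSO, 1950 under PHA665752, 2807 under sc siRNA and 2131 under MET siRNA, and both treated arrays were below their controls. This probe gave log2 ratios of -0.25 ± 0.20, -0.44 ± 0.20 and 0.32 ± 0.20 for PHA665752, MET siRNA and the controls. Over the 7 probes the inhibitor ratios ran from -0.25 to 0.07 with mixed signs, all of them below 0 with 50th percentile scaling. The MET siRNA ratios ran from -0.58 to -0.29, all below 0, and the control ratios from 0.07 to 0.58, all above 0 except that 1 probe was at -0.02 with 50th percentile scaling. All 7 probes were read from the same RNA on each array, so their shared direction is not a replicate of the culture.

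OSMR, the oncostatin M receptor chain, had signals of 404.1 under DMSO, 216.3 under PHA665752, 448.3 under sc siRNA and 377.3 under MET siRNA. It was lowest on the inhibitor array, with a log2 ratio of -0.69 ± 0.20 (1.61-fold lower), against -0.30 ± 0.20 under MET siRNA and 0.40 ± 0.20 between controls. LIFR, which binds LIF, went the other way. Its signals were 47.2 under DMSO, 67.8 under PHA665752, 48.05 under sc siRNA and 62.0 under MET siRNA, with both treated arrays above both controls. The log2 ratio was 0.74 ± 0.22 under PHA665752 (1.67-fold higher) and 0.32 ± 0.23 under MET siRNA, with 0.28 ± 0.23 between controls. With arrays scaled by the median of probes well above background the MET siRNA ratio of LIFR was 0.02.

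**Figure D3:**
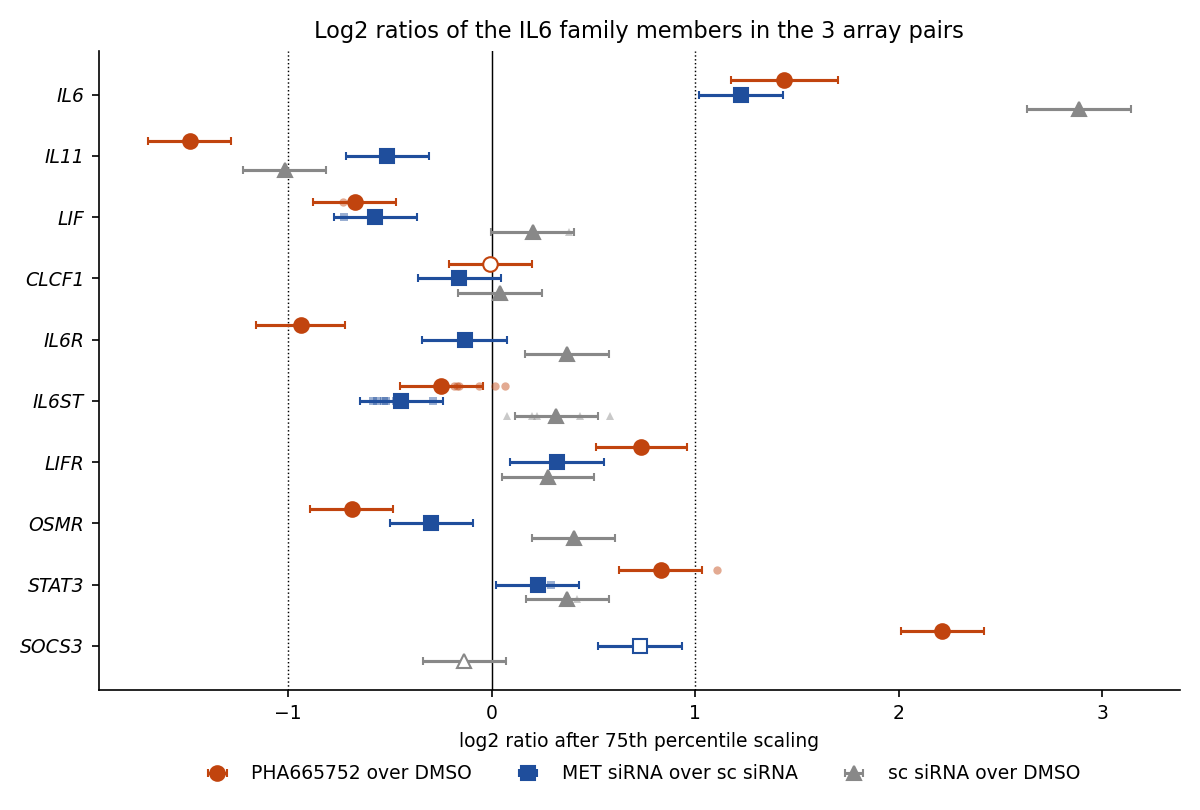
Log2 ratios (x axis, after 75th percentile scaling) of the 10 genes in the 3 array pairs, with bars for the measurement error modelled by the software. Small pale symbols are the other probes of a gene, open symbols are values with background outlier marks ignored, and dotted lines mark 2-fold. IL6 lies past 2-fold to the right in all 3 pairs, and SOCS3 has the highest PHA665752 ratio at 2.21.

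STAT3, the transcription factor activated through gp130, was measured by 2 probes. On A_24_P116805, the brighter, the signals were 220.7 under DMSO, 338.3 under PHA665752, 239.6 under sc siRNA and 289.4 under MET siRNA. The log2 ratio was 0.83 ± 0.21 under PHA665752 (1.78-fold higher), 0.23 ± 0.21 under MET siRNA and 0.37 ± 0.21 between controls. The second probe, A_23_P100795, was spotted 10 times and gave 77.6, 144.3, 87.2 and 110.1 in the same order. As a share of the 75th percentile of the array, its spots did not overlap between arrays. It gave 1.11 ± 0.21 under PHA665752 (2.16-fold higher), which made 4 of 17 member probes past 2-fold where 20.3% of all probes were. In the reported values the probes thus shared direction but lay on different sides of the 2-fold line. The PHA665752 ratio of A_23_P100795 was itself short of 2-fold with normexp (0.73). With scaling by probes well above background the MET siRNA ratios of the 2 probes turned to -0.07 and -0.01.

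SOCS3, the feedback inhibitor of gp130 signalling, had signals of 334.1 under DMSO, 1337 under PHA665752 and 429.4 under MET siRNA. Its spot on the sc siRNA array carried a background outlier mark, and with the mark ignored the signal there was 253.7. The inhibitor array stood far above the others, with a log2 ratio of 2.21 ± 0.20, or 4.64-fold higher, number 385 from the highest of 23471 probes. This was the largest inhibitor ratio among the members, and it stayed between 1.97 and 2.30 in the alternatives. With the mark ignored the ratio was 0.73 under MET siRNA (1.66-fold higher) and -0.13 between controls.

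**Figure D4:**
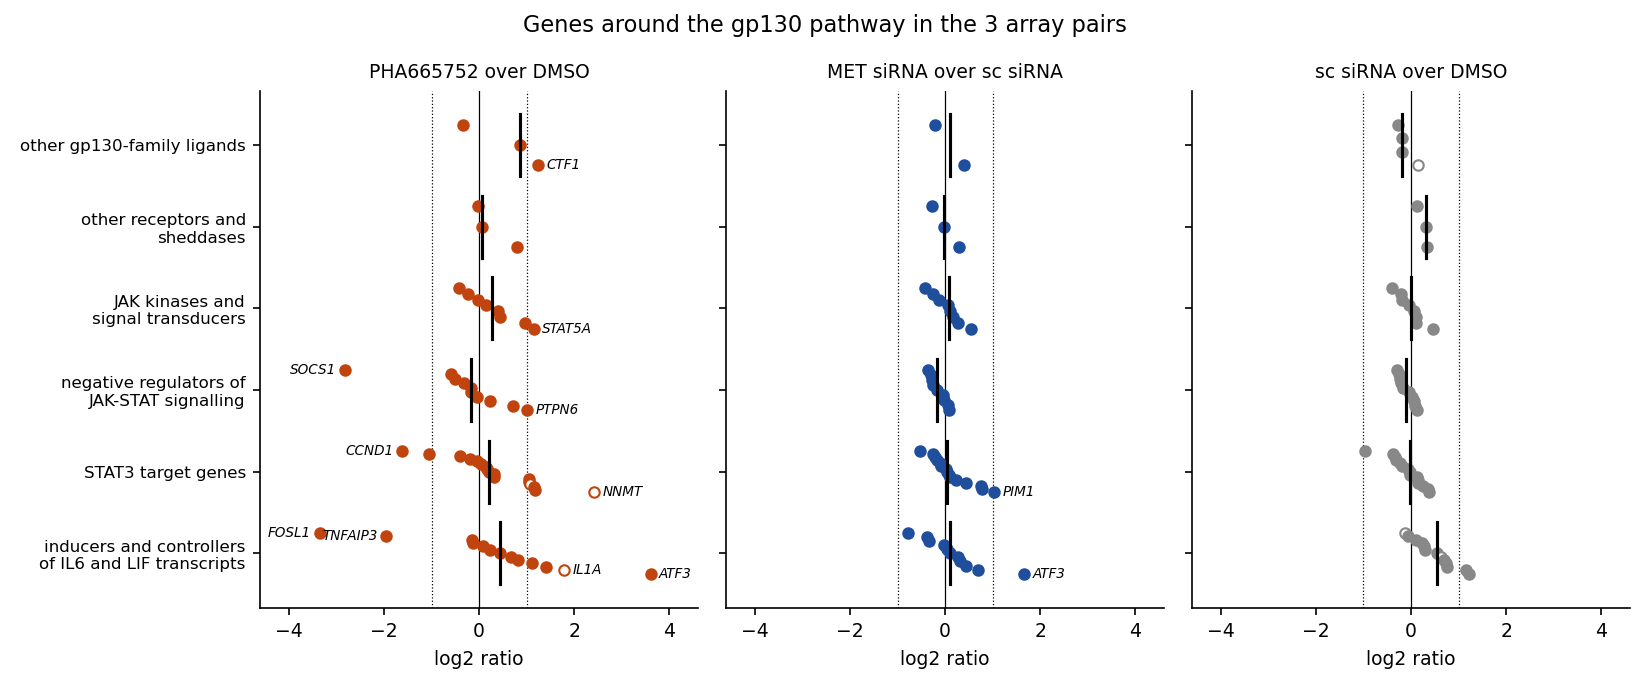
Log2 ratios (x axis) of genes around the pathway in the 3 array pairs, 1 point per gene and 1 row per list, with short vertical lines at the list median and dotted lines at 2-fold. Open points are bounds, and names are given for some of the genes past 2-fold. SOCS1 at -2.83 and FOSL1 at -3.36 lie farthest to the left and ATF3 at 3.61 farthest to the right with PHA665752.

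Other genes of the pathway were read from hand-written lists and described by their counts past 2-fold, beside the shares of all genes given above. Of the other gp130-family ligands, 3 of 6 measured genes had a ratio with PHA665752. CTF1, the cardiotrophin gene, was the 1 past 2-fold, with signals of 4664 under DMSO, 9510 under PHA665752, 3432 under sc siRNA and 4673 under MET siRNA. Its log2 ratios were 1.24, 0.40 and -0.19 for PHA665752, MET siRNA and the controls, and the first was 0.996 with 50th percentile scaling, just short of 2-fold. The median of this list was 0.86, 0.09 and -0.19 in the same order, over 3, 2 and 4 genes. Over so few genes the PHA665752 median was the ratio of EBI3, named here after its value was seen. Its probe was dim, at 22.3 under DMSO and 35.0 under PHA665752, and normexp gave 0.37. The third gene, CNTF, also named after its value was seen, was at -0.33. OSM and IL31 had no ratio in any comparison, since they were well above background on neither array of each pair. Of the other receptors and sheddases, 3 had a ratio and 0 were past 2-fold in any comparison, including ADAM10 and ADAM17, proteases known to cleave IL6R from the cell surface. Their median was 0.07 under PHA665752, where the median of all genes was the same, and 0.31 between controls.

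Of 8 JAK kinases and signal transducers, all measured, 1 was past 2-fold with PHA665752, 0 under MET siRNA and 0 between controls. STAT5A, a signal transducer shared by many cytokine receptors, was at 1.15 under PHA665752 and 0.54 under MET siRNA, from signals of 20.1 under DMSO and 38.6 under PHA665752, and the former ratio was short of 2-fold with the 50th percentile (0.91), quantile normalization (0.82) and normexp (0.57). The median of the list was 0.26, 0.08 and 0.01 for PHA665752, MET siRNA and the controls.

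Of 10 measured negative regulators of JAK-STAT signalling, 1 was higher and 1 lower with PHA665752, and none was past 2-fold with MET siRNA or between controls. SOCS1, which inhibits JAK kinases and is in the same family as SOCS3, had signals of 1901 under DMSO, 230.3 under PHA665752, 1334 under sc siRNA and 1138 under MET siRNA. Its log2 ratios were -2.83, -0.28 and -0.26, so with PHA665752 it went opposite to SOCS3. PTPN6, a phosphatase, was at 1.02 under PHA665752 on a dim probe, and short of 2-fold in 6 of the alternatives, with 0.35 from normexp the lowest of them. The list median was -0.17 under PHA665752 and -0.18 under MET siRNA.

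Among 24 genes known as STAT3 targets, 17 had a ratio with PHA665752, of which 6 were higher and 2 lower past 2-fold. With MET siRNA 1 of 15 was higher, and between controls 0 of 15 were past 2-fold. PIM1, a survival kinase, had signals of 955 under DMSO, 1713 under PHA665752, 613 under sc siRNA and 1291 under MET siRNA. It was the 1 target past 2-fold in both treatments, at 1.06 and 1.03, with -0.38 between controls. BCL3, a regulator of NF-kB, was at 1.17 under PHA665752 and 0.78 under MET siRNA. JUNB, an AP-1 subunit, was at 1.16 and 0.43, and its control ratio was -0.96. CCND1, which encodes cyclin D1, was lower at -1.62 under PHA665752 and -0.21 under MET siRNA. NNMT and the fibrinogen chain FGB were not well above background with DMSO and gave bounds of at least 2.42 and 1.07 on the log2 scale with PHA665752. The remaining genes past 2-fold with PHA665752, named after their values were seen, were BCL6 at 1.06 and BCL2L1 at -1.05 (-0.92 with normexp). With 50th percentile scaling 1 of the 17 targets, NNMT, was higher past 2-fold under PHA665752, since BCL3 (0.93), JUNB (0.92), FGB (0.82), PIM1 (0.81) and BCL6 (0.81) fell short. With normexp 1 was higher as well, BCL3, and with scaling by probes well above background 3 were. The MET siRNA ratio of PIM1 was short of 2-fold with the 50th percentile (0.99), with normexp (0.94) and with scaling by probes well above background (0.73), and JUNB between controls was past it at the 50th percentile (-1.06). The median of the targets was 0.20 under PHA665752, 0.05 under MET siRNA and -0.03 between controls, and the first changed sign at the 50th percentile (-0.04).

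Among inducers and controllers of IL6 and LIF transcripts, 4 of 13 genes with a ratio were higher and 2 lower with PHA665752, 1 of 11 was higher with MET siRNA and 2 of 13 were higher between controls. ATF3, a stress-induced transcription factor, had signals of 1614 under DMSO, 16994 under PHA665752, 3008 under sc siRNA and 9882 under MET siRNA. It was past 2-fold in each comparison, at 3.61, 1.67 and 1.15. FOSL1, an AP-1 subunit downstream of MAP kinases, was at -3.36 under PHA665752, -0.79 under MET siRNA and -0.06 between controls, and the MET siRNA ratio was past 2-fold, at -1.09, with scaling by probes well above background. TNFAIP3, an inhibitor of NF-kB signalling, was at -1.96, -0.35 and 1.22, lower with PHA665752 and higher between controls. NFKBIZ, a nuclear cofactor of NF-kB at the IL6 promoter, was at 1.41 under PHA665752 and 0.44 under MET siRNA. IL1B was at 1.10 under PHA665752 on a dim probe, and IL1A, not well above background with DMSO, gave a bound of at least 1.78. With normexp these became 0.35 and 0.62. The median of the list was 0.45 under PHA665752, 0.11 under MET siRNA and 0.54 between controls, and the MET siRNA median was -0.12 with scaling by probes well above background.

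Genes used as markers of other cell types also differed between some of these arrays, although every culture was of the same established line. The summed scaled signal of the leukocyte markers was 7.88 under DMSO, 8.71 under PHA665752, 14.5 under sc siRNA and 14.5 under MET siRNA, with most of it from CD68. The endothelial sum was 2.01, 0.67, 1.39 and 1.11 in the same order, with most of it from PECAM1. KDR was well above background on none of the arrays. The mesenchymal sum was 11.9 under DMSO, 26.3 under PHA665752, 11.2 under sc siRNA and 12.8 under MET siRNA. Of the 5 measured mesenchymal markers 3 were higher past 2-fold under PHA665752, COL1A1 at 3.32, FN1 at 1.96 and SPARC at 1.33, with CDH2 at 0.26 and ZEB1 at -0.73. With MET siRNA 1 of the 5 was past 2-fold, COL1A1 at 1.54, and the other 4 ran from -0.53 to 0.48. Of the endothelial markers, VWF was at 2.77 under PHA665752 and 1.13 under MET siRNA, whereas PECAM1 was at -2.39 and -0.44. The MET siRNA ratio of VWF was short of 2-fold with normexp (0.55) and with scaling by probes well above background (0.83). COL1A1 and VWF were thus higher past 2-fold in both treatments, as IL6 was, whereas ZEB1 and PECAM1 were lower in both. Among all genes with a ratio, 13.1% were higher past 2-fold with PHA665752 and 2.04% with MET siRNA. Of the gastric epithelial markers, MUC1 was at 1.70 under PHA665752 and 0.78 under MET siRNA, and CDH1, a dim probe named after its values were seen, was at -1.08 between controls (-0.13 with normexp). How the ratios of these genes relate to those of the IL6 family was not tested.

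The genes whose pattern over the 4 arrays was most like each of 4 members were found by the Euclidean distance of centred log2 signals among 16589 probes well above background on all arrays. For IL6 these were TRANK1, IFIH1, IRF7, DHX58 and HSH2D, at distances from 0.53 to 0.85. All 5 had control ratios of 2.40 to 3.74, and IFIH1, IRF7 and DHX58 are known as interferon-induced genes. Their MET siRNA ratios were smaller than the 1.22 of IL6, from 0.06 for HSH2D to 0.66 for TRANK1. For IL11 they were FAM83A, GNG11, ZFPM2, TMEM33 and MAP1LC3C (0.18 to 0.23). For LIF they were ATP2B1, ELMO3, RAP2B, PTAR1 and MRPS30 (0.057 to 0.066). For SOCS3, with outlier marks ignored and 17800 probes, they were PMEPA1, TNFRSF10C, LMNTD2, DNM3 and DLGAP3 (0.026 to 0.079). IL6 had no neighbour as close as those of the other 3, but the distance was not scaled for the size of a pattern. IL6 differed more between arrays than the other 3 did, so its distances cannot be compared with theirs. In addition, 4 arrays give such distances little weight.

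**Figure D5:**
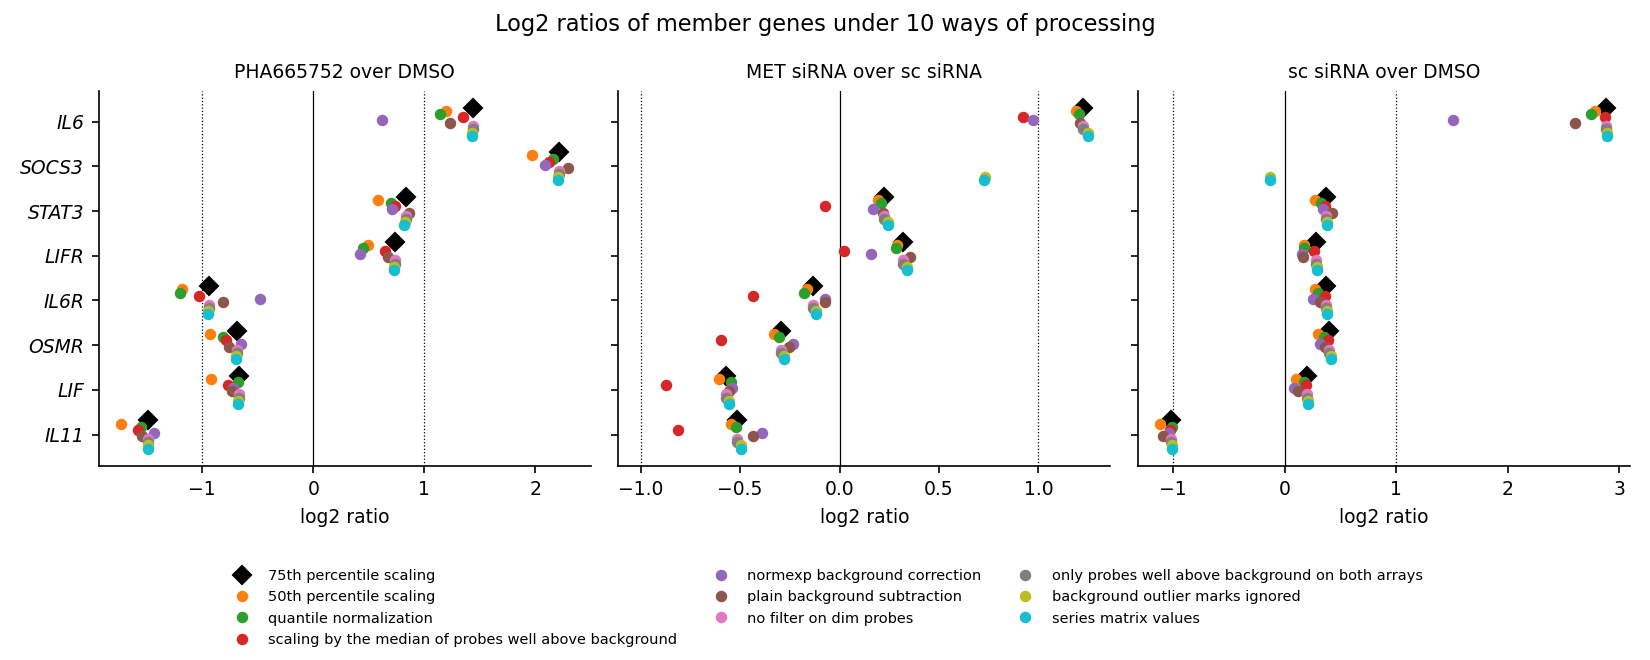
Log2 ratios (x axis, scaled separately in each panel) of 8 member genes under 10 ways of processing, with the reported value as a black diamond and dotted lines at 2-fold. The MET siRNA ratio of IL6 falls below 2-fold with normexp (0.97) and with scaling by the median of probes well above background (0.92), and SOCS3 stays past 2-fold with PHA665752 in every alternative.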

How the data were processed

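Hs746T RNA was labelled with a low-input kit and hybridised to 4 arrays on 1 slide, 1 per condition. The authors deposited Feature Extraction output (11.5.1.1 per the file headers), whose processed signal is a linear intensity after background subtraction and detrending, not normalized between arrays. The deposited series table holds the same intensity for probes spotted once and was used as an alternative. Control spots and any spot with a feature or background outlier mark were removed, repeated spots were averaged after taking log2, and each array's 75th percentile was then subtracted. Of 34127 probes, 25771 (75.5%) were named through RefSeq accessions. A probe counted as well above background if no fewer usable spots had the software's mark than lacked it; with the mark on 1 array of a pair the ratio is a bound against the higher of the probe's own signal and the lowest signal well above background, and with it on neither there is no ratio. The probe with the highest mean signal stood for its gene. Each condition had 1 array, so no test was possible and precision is limited by their number; depth does not apply to arrays. Scanner columns of other samples numbered 0.

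The members and the gene lists were chosen with earlier results of these data known. Some genes of these lists are not reported here. The text names every member, MET, the genes of other lists past 2-fold with PHA665752 or MET siRNA (at most 6 per list, by size) and the 5 nearest patterns of IL6, IL11, LIF and SOCS3; exceptions are stated. Alternatives were the 50th percentile, quantile normalization, scaling by the median of probes well above background, normexp (offset 50) on the median signal since no mean signal was given, plain subtraction, no filter or a stricter filter on dim probes, outlier marks ignored, the series table and the median over probes of a gene. The rules for ratios and bounds were first tested on simulated data. Normexp was run in limma 3.58.1 under R 4.3.3, all other steps in Python 3.11.15 with pandas 2.3.3 and numpy 2.4.6, and plots were drawn with matplotlib 3.10.9.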

Additional observations from a re-analysis of the deposited data

How the results depend on the processing

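The count of member genes past 2-fold with MET siRNA over sc siRNA was 0 in place of 1 with scaling by the median of probes well above background and 0 with normexp, since IL6 was then below the line. The count for PHA665752 over DMSO ranged from 2 to 4 as IL6 or IL6R crossed the line, and that between controls was 2 in every alternative. Of 461 alternative values of member probes, 416 stayed within the software error of the reported value, 45 moved further, and 0 turned the direction of a ratio past 2-fold. The 2 changes to the filter on dim probes leave a ratio measured on both arrays as it was. Part of the 416 was therefore fixed in advance, and the tally is not a measure of robustness. Of 54 ratios, 6 changed sign, none of them past 2-fold, and 6 crossed 2-fold. The 50th percentile moved the median PHA665752 ratio of all probes by -0.25, and scaling by probes well above background moved the MET siRNA median by -0.29, the MET siRNA array having the fewest such probes. Changes smaller than these are relative to the scaling chosen. No paired analysis was possible because each condition had 1 array. Dim probes such as IL6 under DMSO, the second LIF probe, PTPN6 and IL1B lie near background, where normexp drew the PHA665752 ratio towards 0.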
